A study of Mus musculus with 24 samples.

Results

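The HSP40 family, also called the J domain proteins or DNAJ proteins, was followed through proteasome inhibition in mouse fibroblasts of 4 cell-states. Members were all genes whose symbol begins with Dnaja, Dnajb or Dnajc followed by a number and that reached 1 TPM (a transcript level corrected for length and scaled to a fixed library total) in at least 3 libraries. Of 41 such genes, 39 met this rule, among 13489 genes of the table that met the same minimum and were tested. They comprised 4 genes of class A, 10 of class B and 25 of class C. Dnajb13 stayed below the minimum in every library, and Dnajc22 reached it in 2 libraries.

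The cells were tail fibroblasts of male C57/Bl6 mice aged 4 weeks, and the study states that all cell-states came from the same starting pool of cells. Proliferating fibroblasts were sparsely plated, quiescent fibroblasts were held at contact inhibition, senescent fibroblasts were reached by serial passaging, and immortalized fibroblasts expressed the SV40 large T antigen from a retrovirus. Each cell-state was treated for 8 h with 10 µM MG132, a peptide aldehyde that blocks the proteasome, or with 0.1% DMSO, its solvent. Poly(A) RNA of these 8 groups was sequenced in 3 libraries per group, 24 in all. The labels do not say whether the libraries of a group came from separate cultures, so p-values measure the spread between libraries.

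HSP40 proteins carry a J domain that stimulates ATP hydrolysis by HSP70, and so they decide which clients HSP70 binds and where in the cell it works. Class A members resemble bacterial DnaJ in full, class B members keep the J domain and a glycine-rich stretch, and class C members share only the J domain and are otherwise diverse. When unfolded proteins accumulate, as under proteasome inhibition, heat shock factor 1 is known to activate genes of several cytosolic class A and class B members together with those of HSP70, while stress of the endoplasmic reticulum (ER) is known to activate members of that compartment.

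The deposited values sum to the same total in every library, so a level is a share of the messenger RNA measured, and fewer transcripts of a gene per cell cannot be told apart from more transcripts of other genes. Fold changes were therefore computed on TPM divided for each library by a size factor (median of ratios), hereafter scaled TPM, as log2 of scaled TPM + 1, which places the typical gene at no change and understates the change of low genes. This moved the median response of all genes to MG132, which was -0.48 for proliferating and -0.57 for immortalized fibroblasts on TPM as deposited, to -0.02 and 0.01. For senescent fibroblasts the median moved from -0.05 to -0.03, and for quiescent fibroblasts from -0.18 to -0.02. Responses are given relative to the typical gene. Where the deposited scale turned the direction of a called response printed below, this is named. A gene was called when the adjusted p (limma, Benjamini-Hochberg over the 13489 genes) was under 0.05. The depth of the libraries is unknown from TPM.

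Replicate 3 of proliferating DMSO stood apart before any treatment. The summed level of Dnaja1, Dnaja4, Dnajb1 and Dnajb4 was 627 TPM in it, against 288 and 257 TPM in the other proliferating DMSO libraries. Across the remaining DMSO libraries this sum lay between 182 and 418 TPM, and replicate 3 was also the highest in senescent (418 TPM) and immortalized (417 TPM) fibroblasts. Counts that lead a comparison with this library are given with and without it. The 11 fibroblast markers examined summed to between 13423 and 35249 TPM, although Lum and Fap averaged 1.03 and 0.336 TPM in proliferating DMSO. In immortalized DMSO, Dcn, Lum and Fap averaged 0.806, 0.0747 and 0.277 TPM, and 8 of the 11 markers reached a mean of 1 TPM. The marker lists of keratinocytes, endothelium, leukocytes, melanocytes and Schwann cells summed to at most 21.1 TPM in any library. The skeletal muscle list reached 541 TPM through Acta1, and the chondrocyte list 58.5 TPM, and their part in the results was not tested.

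The promoters of the members were searched for motifs of stress-activated factors, because the members that rose most are known targets of such factors. RefSeq promoters (GRCm38.p6, 250 bases before to 50 after a start site) were matched for 33 of 39 members. The motif of 2 inverted heat shock units (GAA, 2 bases of any kind and TTC, or TTC, 2 bases of any kind and GAA, on either strand) was chosen after seeing the data and is contained in the motif of 3 units. It lay in the promoters of 6 members, 18.2% of those matched, against 17.0% of 27025 genes. Whether the motif goes with the responses was not tested. The windows of these members are shown 5′ to 3′ with the motif in capitals.
Dnaja1: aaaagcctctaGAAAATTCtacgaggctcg
Dnaja4: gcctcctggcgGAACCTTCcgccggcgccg
Dnajb4: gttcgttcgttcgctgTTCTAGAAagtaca
Dnajb6: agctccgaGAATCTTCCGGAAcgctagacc
Dnajc10: aacaattttatTTCTAGAAaactttaatta
Dnajc27: cacccatcggtGAAGATTCcaggaaaaaaa
The windows lie at chr4:40722333-40722362 (plus strand), chr9:54699496-54699525 (plus), chr3:152193846-152193875 (minus), chr5:29735844-29735873 (plus), chr2:80315273-80315302 (plus) and chr12:4082350-4082379 (plus). The motif began 124 bases before the start site in Dnaja1, 52 in Dnaja4 and 14 in Dnajb4. Dnajb6 held 3 consecutive units, alternating GAA and TTC with 2 bases between them, in overlapping copies of the 2-unit motif, as did 0.662% of all genes and no other matched member. Its sequence lay 46 or 127 bases before the start sites that RefSeq annotates. The unfolded protein response element lay in the promoter of Dnajc25 alone, against 0.714% of all genes, and the amino acid response element in 0 of 33, against 4.50% of all genes (both strands searched). The promoter of Dnajb1, the member with the largest response in 3 cell-states, held none of these letters in this window. A match of letters is a description of the sequence and not a site of binding.

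Classes A and B took up a larger share of the messenger RNA after MG132 in every cell-state, while class C did so in senescent fibroblasts. The summed TPM of class A in proliferating fibroblasts was 546 ± 103 under DMSO (SD, n = 3) and 1638 ± 193 under MG132. It went from 503 ± 40.4 to 1084 ± 78.1 with senescence, from 474 ± 22.5 to 818 ± 34.4 with quiescence, and from 575 ± 60.2 to 1755 ± 363 with immortalization. Class B went from 533 ± 137 to 1880.4 ± 196, from 528 ± 105 to 1556 ± 92.4, from 415 ± 54.9 to 897 ± 67.1 and from 438 ± 88.5 to 1783 ± 385 TPM in the same order. The libraries of the 2 treatments did not overlap for either class in any cell-state. Class C was the largest class under DMSO, at 1490.3 to 1696 TPM on average. After MG132 it stood at 1055 ± 48.9, 1715 ± 21.3, 1526 ± 17.2 and 897 ± 6.21 TPM in this order, and here too the libraries of the treatments did not overlap. On scaled TPM its mean log2 ratio was 0.048, 0.22, 0.034 and -0.079 in this order, so its lower share in proliferating and quiescent fibroblasts was not lower relative to the typical gene. The exact permutation test of 3 against 3 libraries cannot give a p below 0.10, so these sums are given as values only.

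**Figure D1:**
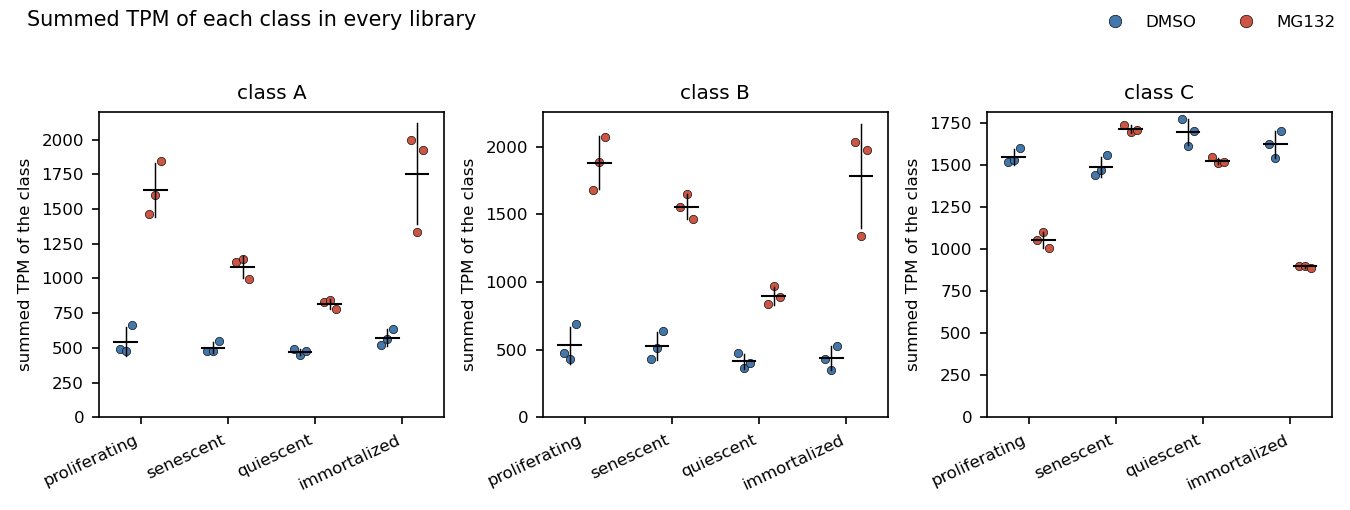
Summed TPM (linear axis from 0) of the 4 class A, 10 class B and 25 class C members in each of 24 libraries, by cell-state and treatment. Points are libraries, horizontal bars are means and vertical bars are SD (n = 3). Classes A and B lie higher under MG132 in all 4 cell-states, and class C falls to between 891 and 903 TPM in immortalized fibroblasts.

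The composition of class A was exchanged by the treatment. Under DMSO the mitochondrial member Dnaja3 made up 43.8% to 48.3% of class A on average, and Dnaja1 24.1% to 24.9%. Under MG132 Dnaja1 made up 49.7% (proliferating), 39.5% (senescent), 40.5% (quiescent) and 55.2% (immortalized). In class B the share of Dnajb1 under MG132 was 51.0% in proliferating and 53.7% in immortalized fibroblasts, against 38.4% in senescent and 23.5% in quiescent fibroblasts.

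Member by member, the family responded in both directions. In proliferating fibroblasts 12 members rose and 8 fell, where 25.2% of all genes tested rose and 24.8% fell. In senescent fibroblasts 18 rose and 3 fell (22.7% and 23.4% of all genes), in quiescent fibroblasts 14 rose and 8 fell (25.3% and 26.9%), and in immortalized fibroblasts 13 rose and 10 fell (26.6% and 26.6%). The median response of the members was 0.17, 0.29, 0.13 and -0.01 in this order. The deposited scale gave 7 rises and 17 falls, 19 and 3, 11 and 11, and 6 and 22 in the same order. On that scale the median of all genes was itself negative, most so in proliferating and immortalized fibroblasts. The share of all genes called on it is not given, so these counts cannot be read as particular to the family. Without replicate 3 of proliferating DMSO 14 members rose and 7 fell in proliferating fibroblasts, with all-gene shares not given. The counts on scaled TPM include Dnajc6 among the senescent and quiescent rises and Dnajb3 among the falls. Dnajc6 met the minimum level only through senescent libraries and Dnajb3 only through quiescent DMSO libraries, so their part in the counts is a description.

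The classes differed in these counts. In class A 3 of 4 members rose in every cell-state, with medians of 1.96, 1.07, 1.12 and 2.24 for proliferating, senescent, quiescent and immortalized fibroblasts. In class B 7, 7, 6 and 7 of 10 members rose and 2, 1, 2 and 0 fell, with medians of 0.86, 0.49, 0.68 and 1.04. In class C 2, 8, 5 and 3 of 25 members rose and 5, 2, 6 and 9 fell, with medians of -0.01, 0.08, -0.04 and -0.16. For comparison, the median of all genes tested lay between -0.03 and 0.01 in the 4 cell-states. Of all genes tested 25.2%, 22.7%, 25.3% and 26.6% rose and 24.8%, 23.4%, 26.9% and 26.6% fell in the same order. Differences between the classes were not tested.

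**Figure D2:**
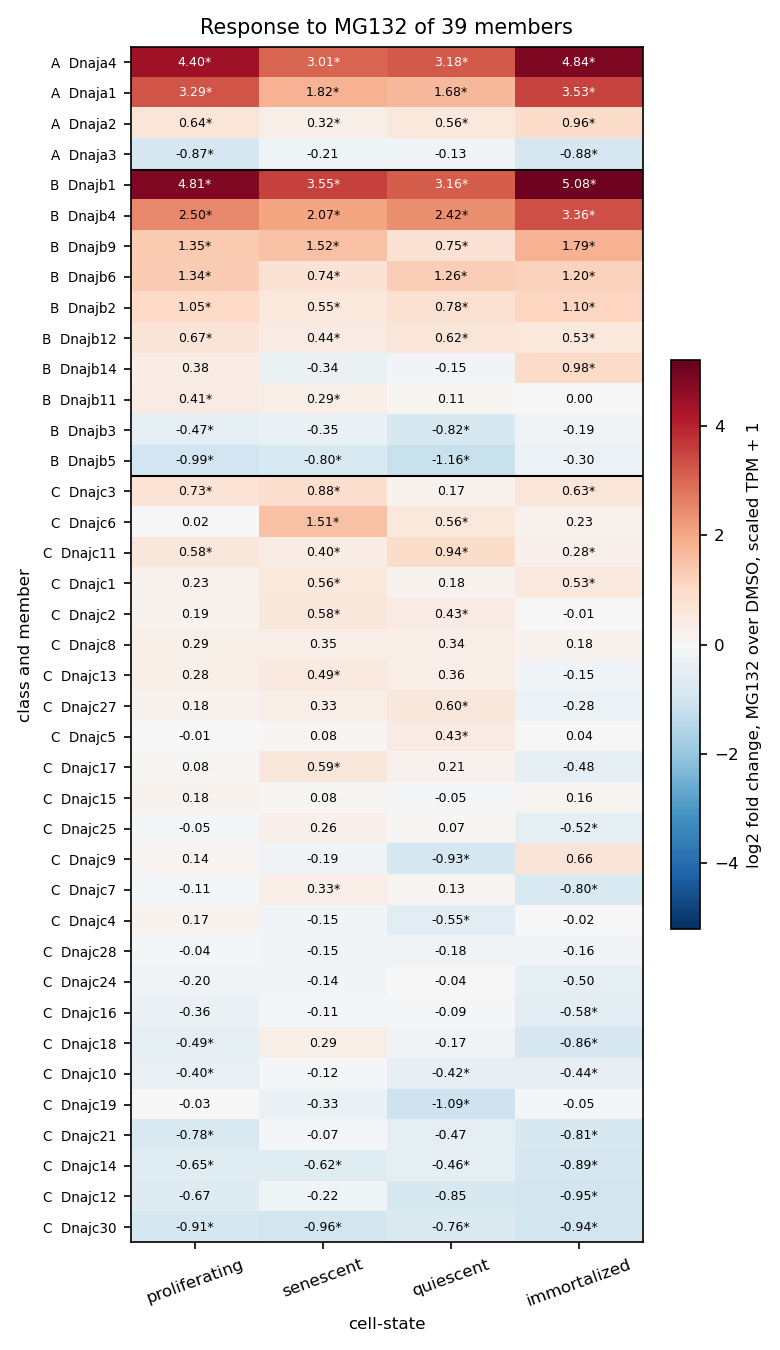
Response to MG132 of each of the 39 members (rows, ordered by class and mean response) in 4 cell-states (columns), as log2 fold change of scaled TPM + 1. Asterisks mark responses called by limma. Red cells, for rises, concentrate in classes A and B, and Dnajc14 and Dnajc30 are called lower in all 4 columns.

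Called higher in all 4 cell-states were 10 members (Dnaja1, Dnaja2, Dnaja4, Dnajb1, Dnajb2, Dnajb4, Dnajb6, Dnajb9, Dnajb12 and Dnajc11), while 8.15% of all genes were. On both other scales tried (TPM as deposited, and TPM with the scaling to a fixed total undone), 5 of them were still called higher in all 4 cell-states, namely Dnaja1, Dnaja4, Dnajb1, Dnajb4 and Dnajb6. Dnajc14 and Dnajc30 were called lower in all 4 cell-states on each of these scales, against 7.60% of all genes on scaled TPM. The 4 members called in no cell-state were Dnajc8, Dnajc15, Dnajc24 and Dnajc28.

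Dnajb1 (ENSMUSG00000005483, chromosome 8, 83608193 to 83612653, GRCm38) is the classical heat-inducible HSP40 that activates cytosolic HSP70, and its response was the largest of the family in proliferating, senescent and immortalized fibroblasts. Its levels in proliferating fibroblasts were 34.1, 33.7 and 112 TPM under DMSO and 841, 940.0 and 1103 TPM under MG132, and in senescent fibroblasts 37.3, 46.2 and 74.4 against 602, 653 and 542 TPM. Quiescent fibroblasts had 34.2, 20.4 and 24.3 against 179, 249 and 208 TPM, and immortalized fibroblasts 46.5, 30.3 and 71.3 against 1109.7, 658 and 1132 TPM. All MG132 libraries lay above all DMSO libraries of their cell-state, and the highest quiescent MG132 library lay below the lowest MG132 library of each other cell-state. The log2 fold changes were 4.81, 3.55, 3.16 and 5.08 for proliferating, senescent, quiescent and immortalized fibroblasts (SE 0.37, adjusted p = 1.14e-08, 4.28e-07, 1.49e-06 and 1.23e-09).

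Dnaja4 (ENSMUSG00000032285, chromosome 9, 54698873 to 54716315), a cytosolic class A member, stood at 32.2, 26.4 and 91.3 TPM under DMSO and 531, 616 and 702 TPM under MG132 in proliferating fibroblasts, and at 26.9, 37.4 and 60.3 against 331, 344 and 292 TPM in senescent fibroblasts. Quiescent libraries held 24.7, 13.4 and 20.1 against 137, 187 and 158 TPM, and immortalized libraries 29.7, 21.9 and 45.7 against 702, 357 and 614 TPM. No DMSO library reached an MG132 library of its cell-state. The log2 fold changes were 4.40, 3.01, 3.18 and 4.84 for proliferating, senescent, quiescent and immortalized fibroblasts (SE 0.37, adjusted p = 2.66e-08, 2.24e-06, 1.16e-06 and 2.05e-09).

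Dnaja1 (ENSMUSG00000028410, chromosome 4, 40722150 to 40737149), a farnesylated cochaperone of cytosolic HSP70, was the most abundant class A member after MG132. Proliferating libraries rose from 93.7, 90.2 and 229 to 725, 782 and 938 TPM, and senescent libraries from 103, 103 and 168 to 438, 455 and 391 TPM. Quiescent libraries rose from 137, 103 and 113 to 325, 356 and 314 TPM, and immortalized libraries from 129, 111 and 192 to 1063, 749 and 1086 TPM. The treatments did not overlap in any cell-state. The log2 fold changes were 3.29, 1.82, 1.68 and 3.53 for proliferating, senescent, quiescent and immortalized fibroblasts (SE 0.28, adjusted p = 3.67e-08, 3.22e-05, 7.04e-05 and 4.12e-09). Dnaja2, a further cytosolic class A member, lay between 105 and 154 TPM in all 24 libraries. Its log2 fold changes were 0.64, 0.32, 0.56 and 0.96 (SE 0.11), and the senescent call was lost without any of 4 senescent libraries (adjusted p 0.0515 to 0.113). The deposited scale gave 0.04 for proliferating and 0.19 for immortalized fibroblasts, neither of them called.

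**Figure D3:**
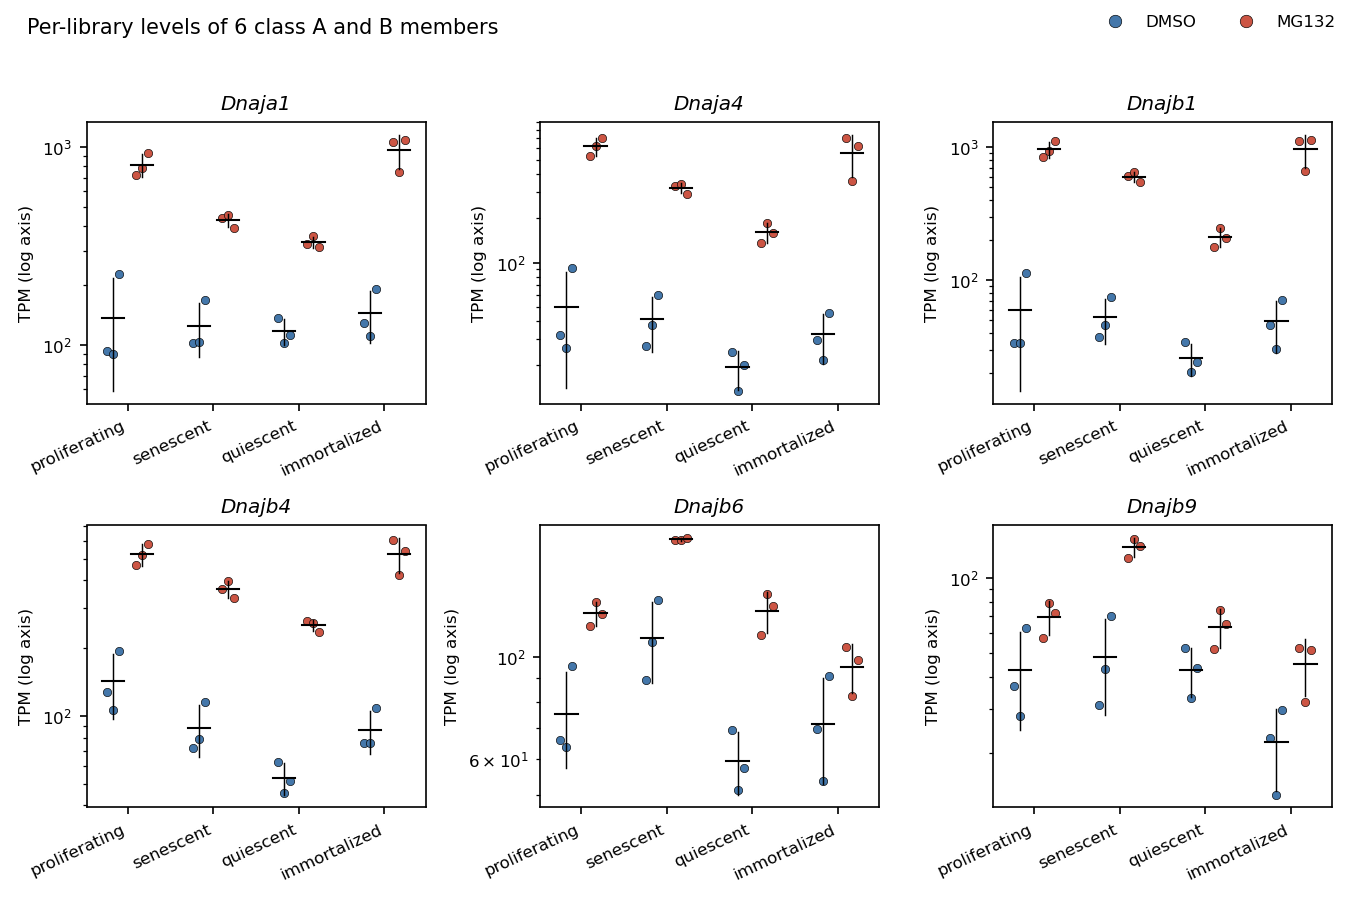
TPM (log axis) of Dnaja1, Dnaja4, Dnajb1, Dnajb4, Dnajb6 and Dnajb9 in each of 24 libraries, by cell-state and treatment. Points are libraries, horizontal bars are means and vertical bars are SD (n = 3). Dnaja1, Dnaja4, Dnajb1 and Dnajb4 show no overlap of the treatments, and their MG132 levels are lowest in quiescent fibroblasts.

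Dnaja3 (ENSMUSG00000004069, chromosome 16, 4639989 to 4707695), the mitochondrial class A member that serves mitochondrial HSP70, was the member of its class that did not rise. Proliferating libraries went from 250.3, 259.6 and 208 TPM under DMSO to 94.2, 84.3 and 79.1 TPM under MG132, and immortalized libraries from 242, 301 and 267 to 90.7, 86.8 and 78.5 TPM, without overlap. Senescent libraries were at 228, 229 and 198 against 202, 186 and 173 TPM, which overlap, and quiescent libraries at 222, 226 and 238 against 219, 164 and 171 TPM. The gene fell in proliferating (log2 fold change -0.87 ± 0.12, adjusted p = 7.76e-06) and immortalized fibroblasts (-0.88, adjusted p = 4.52e-06). The senescent (-0.21, adjusted p = 0.167) and quiescent values (-0.13, adjusted p = 0.371) did not pass, although the deposited scale called the quiescent value (-0.32). Dnaja3 overlaps a coding gene on its own strand, so its level is uncertain where reads are shared.

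Dnajb4 (ENSMUSG00000028035, chromosome 3, 152178511 to 152210302), a cytosolic relative of Dnajb1, stood in proliferating fibroblasts at 128, 106 and 194 TPM under DMSO and at 467, 519 and 582 TPM under MG132. Senescent libraries went from 71.9, 79.1 and 115 to 365, 398 and 333 TPM. Quiescent libraries went from 62.3, 45.6 and 51.4 to 264, 259 and 237 TPM, and immortalized libraries from 75.5, 75.7 and 108 to 604, 422 and 542 TPM. The treatments did not overlap in any cell-state. Its log2 fold changes were 2.50, 2.07, 2.42 and 3.36 for proliferating, senescent, quiescent and immortalized fibroblasts (SE 0.20, adjusted p = 1.74e-08, 1.79e-07, 1.94e-08 and 9.49e-11).

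Dnajb6 (ENSMUSG00000029131, chromosome 5, 29735688 to 29818134), known for suppressing aggregation of polyglutamine proteins, went from 65.9, 63.9 and 95.7 to 117, 132 and 124 TPM in proliferating and from 89.3, 108 and 133 to 179.9, 180.3 and 182 TPM in senescent fibroblasts. Quiescent libraries went from 69.4, 51.4 and 57.3 to 112, 137 and 129 TPM. In immortalized fibroblasts the libraries overlapped in TPM, at 69.8, 53.8 and 91.0 against 105, 82.5 and 98.4. The log2 fold changes of scaled TPM were 1.34, 0.74, 1.26 and 1.202 (SE 0.17, adjusted p = 3.47e-06, 0.00152, 7.13e-06 and 7.71e-06). Dnajb2, whose ubiquitin-interacting motifs link HSP70 clients to the proteasome, had means of 22.2 to 31.7 TPM under DMSO and 28.5 to 46.1 TPM under MG132, and it rose by 1.05, 0.55, 0.78 and 1.104 (SE 0.15).

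Among the class B members of the ER, Dnajb9 (ERdj4, a cochaperone of the ER HSP70 BiP and a known target of the unfolded protein response) rose in senescent fibroblasts from 31.1, 43.2 and 70.1 to 120.0, 143 and 133 TPM (log2 fold change 1.52 ± 0.30, adjusted p = 3.21e-04). In proliferating fibroblasts the treatments overlapped in TPM, at 37.1, 28.1 and 63.0 against 57.6, 78.9 and 72.5, with a called log2 fold change of 1.35 (adjusted p = 8.38e-04). In immortalized fibroblasts it rose from 22.9, 13.6 and 29.6 to 52.6, 31.9 and 51.2 TPM (1.79, adjusted p = 4.11e-05). The quiescent value of 0.75 (adjusted p = 0.041) was lost without any of 4 quiescent libraries (adjusted p 0.0855 to 0.145). Dnajb12, an ER membrane protein that recruits cytosolic HSC70, rose by 0.67, 0.44, 0.62 and 0.53 on scaled TPM (SE 0.11), but its immortalized value was -0.23 on TPM as deposited. Its paralogue Dnajb14 was called in immortalized fibroblasts (0.98 ± 0.17, adjusted p = 6.00e-05), where the deposited scale gave 0.30 and no call. Its proliferating value of 0.38 (adjusted p = 0.0652) passed without replicate 1 of proliferating DMSO or replicate 2 of proliferating MG132 (adjusted p 0.00806 to 0.0243). The ER member Dnajb11, 21.9% to 33.4% of class B under DMSO on average, was called higher in 2 cell-states, but in 0 on all 3 scales. In immortalized fibroblasts its TPM went from 138, 106 and 136 to 73.9, 74.3 and 73.2. Its log2 ratio of mean levels in proliferating fibroblasts was 0.41 on scaled TPM and -0.19 as deposited.

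Class B also held members that fell. Dnajb5, a cytosolic relative of Dnajb1 and Dnajb4, went from 9.32, 10.6 and 7.33 to 3.09, 3.13 and 1.81 TPM in proliferating and from 15.4, 13.7 and 15.8 to 5.59, 5.76 and 4.52 TPM in quiescent fibroblasts. In senescent fibroblasts it went from 10.3, 12.6 and 10.0 to 5.25, 5.90 and 6.06 TPM. The treatments did not overlap, and the log2 fold changes were -0.99, -1.16 and -0.80 (SE 0.14, adjusted p = 8.96e-06, 1.61e-06 and 1.07e-04). In immortalized fibroblasts it was at 5.74, 4.90 and 5.36 against 2.70, 2.37 and 2.14 TPM, and the value of -0.30 on scaled TPM did not pass (adjusted p = 0.0729). The treatments did not overlap there on scaled or deposited TPM. The log2 ratio of mean levels was -0.38 on scaled TPM and -1.15 as deposited. Dnajb3, best known from testis, lay between 0 and 3.003 TPM and was listed at 0 in all 3 immortalized MG132 libraries. It met the minimum level only through quiescent DMSO libraries, so its calls are a description. It lies within the span of 8 coding genes of the Ugt1a cluster on the opposite strand. Whether their exons overlap was not checked, so reads shared without strand are possible.

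In class C, Dnajc14 (ENSMUSG00000025354, chromosome 10, 128804062 to 128819446), an ER membrane protein known for receptor export, was lower under MG132 in every cell-state. Proliferating libraries went from 158, 155 and 135 to 61.4, 68.8 and 57.4 TPM, and immortalized libraries from 186, 197 and 185 to 61.0, 56.5 and 60.4 TPM. Senescent libraries went from 192, 171 and 184 to 126, 112 and 112 TPM, and quiescent libraries from 204, 199.9 and 212 to 141, 122 and 129.6 TPM. No treated library overlapped its controls. The log2 fold changes were -0.65, -0.62, -0.46 and -0.89 for proliferating, senescent, quiescent and immortalized fibroblasts (SE 0.09, adjusted p = 7.92e-06, 1.34e-05, 2.74e-04 and 8.64e-08). Dnajc14 overlaps a coding gene on its own strand.

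Dnajc30 (ENSMUSG00000061118, chromosome 5, 135064202 to 135065862), a mitochondrial protein, was the other member called lower in all 4 cell-states. Its mean level went from 14.7 ± 0.913 to 4.83 ± 0.555 TPM in proliferating and from 17.6 ± 1.08 to 8.46 ± 1.28 TPM in senescent fibroblasts (SD, n = 3). It went from 22.1 ± 1.27 to 11.2 ± 2.71 TPM in quiescent and from 11.6 ± 1.88 to 3.20 ± 0.212 TPM in immortalized fibroblasts. The treatments did not overlap in any cell-state, and the log2 fold changes were -0.91, -0.96, -0.76 and -0.94 (SE 0.15, adjusted p = 5.57e-05, 3.73e-05, 3.32e-04 and 3.02e-05).

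Among the ER members of class C, Dnajc3 (P58IPK, an ER-luminal cochaperone of BiP) rose in proliferating (0.73 ± 0.15, adjusted p = 3.95e-04), senescent (0.88, adjusted p = 6.72e-05) and immortalized fibroblasts (0.63, adjusted p = 0.00113). Its senescent libraries went from 43.2, 57.8 and 73.1 to 115, 101 and 97.2 TPM, while proliferating libraries overlapped in TPM, at 56.4, 47.1 and 61.2 against 57.3, 63.8 and 58.9. The deposited scale gave 0.13 for proliferating and -0.13 for immortalized fibroblasts, neither of them called. Dnajc10 (ERdj5, a disulfide reductase of ER-associated degradation) fell in proliferating (-0.40 ± 0.09), quiescent (-0.42) and immortalized fibroblasts (-0.44), and its senescent value was -0.12 (adjusted p = 0.327). Dnajc1 (ERdj1), an ER membrane cochaperone of BiP, rose in senescent (0.56 ± 0.12, adjusted p = 8.99e-04) and immortalized fibroblasts (0.53, adjusted p = 0.00115), but the deposited scale gave -0.24 for the latter. In proliferating fibroblasts its value was 0.23 on scaled TPM, passed without replicate 3 of proliferating DMSO (0.35, adjusted p = 0.0236), and was called lower on the deposited scale (-0.37).

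Dnajc11, a mitochondrial membrane protein tied to cristae organization, was called higher in all 4 cell-states on scaled TPM (0.58, 0.40, 0.94 and 0.28, SE 0.10). Quiescent libraries went from 38.5, 36.2 and 42.2 to 73.0, 63.6 and 63.7 TPM. In immortalized fibroblasts TPM instead went from 57.3, 60.8 and 68.1 to 47.1, 41.6 and 43.5, and the deposited scale called the gene lower (-0.48). Of all members and comparisons this was the only one called in opposite directions on the scales tried. The immortalized call was also lost without any of 3 libraries (adjusted p 0.055 to 0.112).

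The responses of the cell-states were then compared with each other. The number of members whose response differed was 16 between immortalized and senescent fibroblasts (38.5% of all genes differed) and 14 between immortalized and quiescent fibroblasts (31.2%). Senescent and proliferating fibroblasts differed in 6 members (18.8% of all genes), quiescent and proliferating in 3 (13.1%), immortalized and proliferating in 2 (11.6%), and quiescent and senescent in 3 (20.4%). Without replicate 3 of proliferating DMSO the counts against proliferating fibroblasts were 11 (senescent), 5 (quiescent) and 6 (immortalized), with all-gene shares not given. Immortalized against proliferating fibroblasts moved to as few as 1 without replicate 3 of proliferating MG132 or replicate 1 of immortalized MG132. These comparisons share libraries. Dnajc6, which met the minimum level only through senescent libraries, is counted in each comparison with senescent fibroblasts.

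Dnajb1, Dnaja1 and Dnaja4 rose further in immortalized than in quiescent fibroblasts. The difference of log2 fold changes was 1.92 ± 0.53 for Dnajb1 (SE, adjusted p = 0.00933), 1.85 ± 0.40 for Dnaja1 (adjusted p = 0.00162) and 1.65 ± 0.52 for Dnaja4 (adjusted p = 0.0212). Against senescent fibroblasts the differences were 1.53 for Dnajb1 (adjusted p = 0.0283), 1.71 for Dnaja1 (adjusted p = 0.00225), 1.83 for Dnaja4 (adjusted p = 0.00923) and 1.29 ± 0.29 for Dnajb4 (adjusted p = 0.00144). The Dnajb1 difference from senescent fibroblasts was lost without any of 5 libraries (adjusted p 0.0547 to 0.0744), and that of Dnaja4 from quiescent fibroblasts without any of 4 (adjusted p 0.0518 to 0.0578). The deposited scale called neither Dnaja4 difference (1.05 and 1.07), nor those of Dnajb1 (0.77) and Dnajb4 (0.53) from senescent fibroblasts. The Dnajb1 difference from quiescent fibroblasts was not called on every scale tried.

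Relative to proliferating fibroblasts Dnaja1 rose less in senescent (difference -1.47 ± 0.40, adjusted p = 0.0146) and quiescent fibroblasts (-1.61, adjusted p = 0.0113), and the deposited scale did not call the former (-0.88). Dnajb1 rose less in quiescent fibroblasts (-1.65 ± 0.53, adjusted p = 0.0449), a call lost without any of 11 of the 12 libraries of these groups (adjusted p 0.0511 to 0.127), the exception being replicate 3 of proliferating DMSO. The deposited scale gave -1.23 and no call. The fall of Dnaja3 in proliferating fibroblasts differed from the quiescent value by 0.74 ± 0.17 (adjusted p = 0.00642). Dnaja3 was called in 4 comparisons of response in all.

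**Figure D4:**
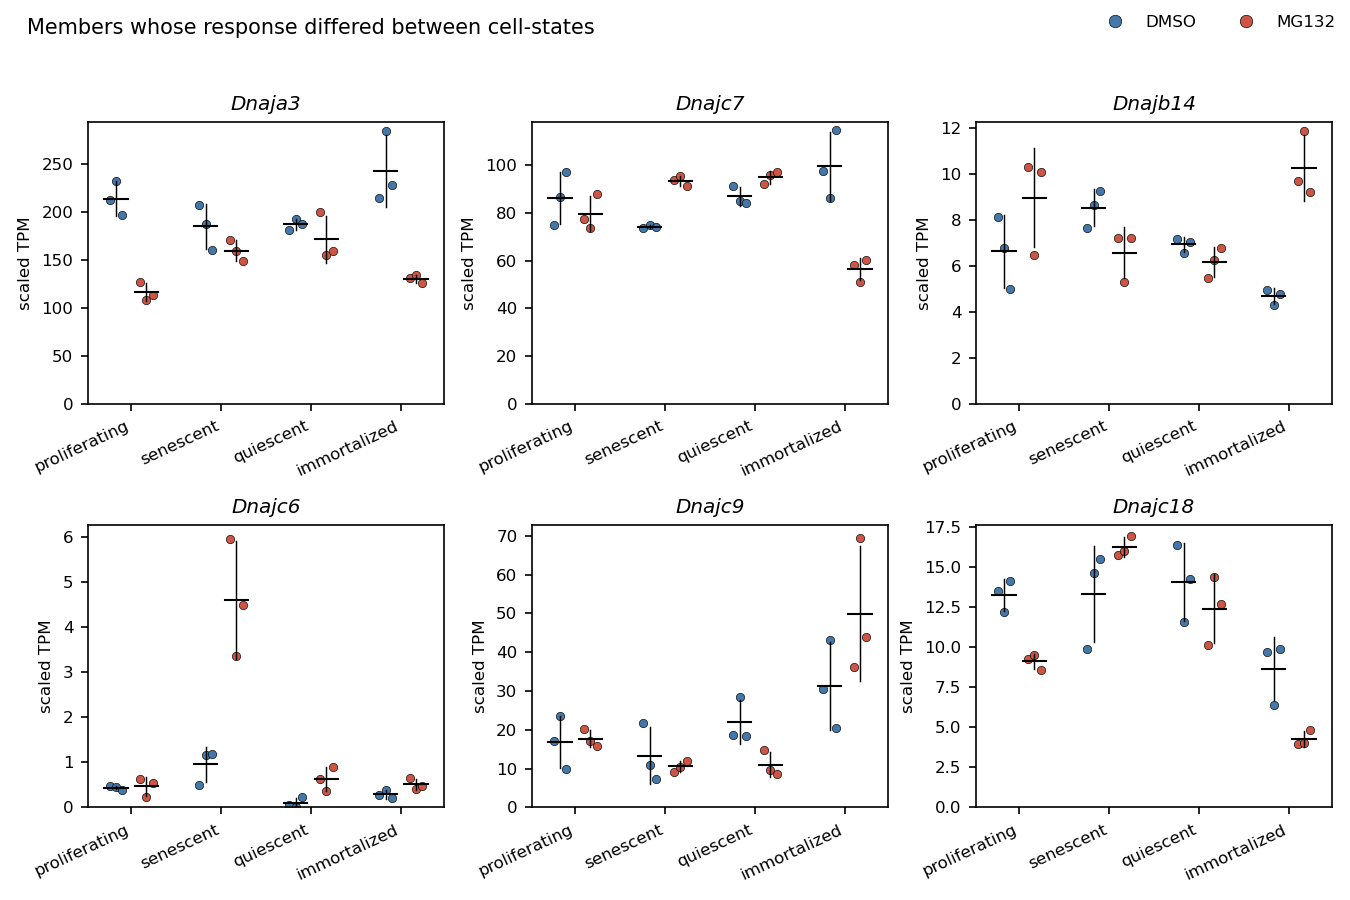
Scaled TPM (linear axis from 0, the scale of the test) of Dnaja3, Dnajc7, Dnajb14, Dnajc6, Dnajc9 and Dnajc18 in each of 24 libraries. Points are libraries, horizontal bars are means and vertical bars are SD (n = 3). Dnaja3 lies lower under MG132 in proliferating and immortalized fibroblasts, Dnajc7 in immortalized fibroblasts, and Dnajc6 lies higher in senescent fibroblasts.

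Dnajc7, a tetratricopeptide protein that binds both HSP70 and HSP90, was the 1 member called in opposite directions in different cell-states on scaled TPM. In senescent fibroblasts it went from 81.1, 91.7 and 91.5 to 111, 112 and 106 TPM (0.33 ± 0.11, adjusted p = 0.0152), and in immortalized fibroblasts from 110.0, 91.2 and 135 to 40.3, 33.1 and 37.6 TPM (-0.80, adjusted p = 2.92e-06). Neither pair of groups overlapped. The immortalized response differed from that of proliferating (-0.69 ± 0.15, adjusted p = 0.0051), quiescent (-0.93, adjusted p = 1.05e-04) and senescent fibroblasts (-1.13, adjusted p = 7.19e-06). The senescent call was lost without replicate 2 of senescent MG132 (0.31, adjusted p = 0.0503). The senescent rise was also not called on every scale tried, whereas the immortalized fall was.

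Dnajc6, or auxilin, which with HSC70 strips clathrin from vesicles and is best known from neurons, exceeded 1 TPM in senescent libraries only. It met the minimum level of the test only through them, so its values are a description. In senescent fibroblasts it went from 0.550, 1.43 and 1.48 TPM under DMSO to 7.06, 3.92 and 5.22 TPM under MG132 (log2 fold change 1.51). Proliferating libraries held 0.557, 0.514 and 0.417 against 0.467, 0.178 and 0.380 TPM, and immortalized libraries 0.303, 0.421 and 0.239 against 0.452, 0.268 and 0.292 TPM. Quiescent libraries held 0.0671, 0 and 0.299 against 0.687, 0.382 and 0.955 TPM (0.56). The difference of response was 1.50 for senescent minus proliferating, -0.95 for quiescent minus senescent and -1.29 for immortalized minus senescent fibroblasts. With a pseudocount of 0.1 the last 2 were -0.20 and -1.54.

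Dnajc9, a histone chaperone that works with HSP70, fell in quiescent fibroblasts from 23.0, 33.4 and 23.6 to 16.2, 10.2 and 9.36 TPM (-0.93 ± 0.34, adjusted p = 0.0283), a call lost without any of 3 quiescent libraries (adjusted p 0.0785 to 0.119). In immortalized fibroblasts it stood at 34.4, 45.7 and 24.1 against 25.1, 44.9 and 27.5 TPM, which overlap, and its value of 0.66 on scaled TPM (adjusted p = 0.114) passed without replicate 2 of immortalized DMSO (0.91, adjusted p = 0.0469). The responses differed by 1.59 ± 0.48 (adjusted p = 0.0169), which was lost without replicate 3 of immortalized DMSO or replicate 2 of immortalized MG132 (adjusted p 0.0516 to 0.0524) and not called on the deposited scale (1.02). The summed level of 4 cycling markers (Mki67, Top2a, Ccna2 and Lmnb1) lay between 61.9 and 159 TPM under DMSO and between 10.9 and 47.8 TPM under MG132 in quiescent fibroblasts. In immortalized fibroblasts it lay between 98.1 and 599.6 TPM and between 40.6 and 100.4 TPM in the same order. Under DMSO it lay between 29.3 and 126 TPM in proliferating and between 6.85 and 23.6 TPM in senescent fibroblasts. The quiescent DMSO range thus overlapped the proliferating one. The part of these markers in the Dnajc9 values was not tested.

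Dnajc18, an ER membrane member, fell in immortalized fibroblasts from 10.9, 6.78 and 11.6 to 2.74, 2.60 and 3.03 TPM (-0.86 ± 0.17, adjusted p = 2.57e-04), and its response differed from that of senescent fibroblasts by -1.14 (adjusted p = 8.27e-04). Dnajc17, known from splicing, likewise differed between these cell-states by -1.07 ± 0.31 (adjusted p = 0.00905). Dnajb14 differed in the other direction, by 1.32 ± 0.24 from senescent (adjusted p = 2.10e-04) and by 1.12 from quiescent fibroblasts (adjusted p = 0.00127), the latter not called on the deposited scale (0.61). Dnajb5 differed between immortalized and proliferating fibroblasts by 0.69 ± 0.20 (adjusted p = 0.0277), which was lost without any of 5 libraries (adjusted p 0.0509 to 0.0802) and on the deposited scale (0.57). Dnajc11 differed between quiescent and senescent fibroblasts by 0.54 ± 0.14 (adjusted p = 0.00982), but not on the deposited scale (0.37).

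Further falls in class C were called in single cell-states or pairs of them. Dnajc19, a subunit of the mitochondrial import motor, fell in quiescent fibroblasts from 12.3, 16.01 and 11.1 to 3.92, 4.97 and 5.66 TPM (-1.09 ± 0.29, adjusted p = 0.00404). Dnajc21, known for maturation of the large ribosomal subunit, fell in proliferating (-0.78 ± 0.24, adjusted p = 0.011) and immortalized fibroblasts (-0.81, adjusted p = 0.00728). Each of these 2 calls was lost without replicate 2 of its DMSO group (-0.61 with adjusted p = 0.0691, and -0.52 with adjusted p = 0.0675).

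Under DMSO alone, 5 members stood higher in senescent than in proliferating cells and 5 stood lower (21.0% and 19.8% of all genes). For quiescent fibroblasts 4 were higher and 6 lower (15.5% and 14.7%), and for immortalized fibroblasts 5 higher and 6 lower (18.0% and 17.7%). The cycling markers of the quiescent and proliferating DMSO libraries overlapped, as given above. Among the higher members, Dnajc28 (senescent) and Dnajb3 (quiescent) met the minimum level only through libraries of that cell-state. Their calls are a description. All 3 comparisons share the proliferating DMSO libraries. Without replicate 3 of that group the counts were 6 and 4, 4 and 2, and 8 and 5, with all-gene shares not given. Single libraries moved them further, to 2 to 6 higher and 3 to 7 lower (senescent), 2 to 5 and 2 to 7 (quiescent), and 2 to 8 and 3 to 7 (immortalized). The libraries whose removal moved a count by more than 1.5 times were all 3 of proliferating DMSO, replicates 2 and 3 of senescent DMSO, replicates 1 and 2 of quiescent DMSO and replicate 2 of immortalized DMSO.

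Dnajb4 was lower than in proliferating fibroblasts in each other cell-state, by -0.75 ± 0.20 in senescent (adjusted p = 0.00645), -1.50 in quiescent (adjusted p = 1.67e-05) and -0.69 in immortalized fibroblasts (adjusted p = 0.0122). Its quiescent libraries (45.6 to 62.3 TPM) did not overlap the proliferating ones (106 to 194 TPM), while the senescent and immortalized libraries did. The immortalized call was lost without replicate 3 of proliferating DMSO or replicate 2 of immortalized DMSO (adjusted p 0.0512 to 0.0849). The senescent value of Dnajb4 was not called with the scaling to a fixed total undone. Dnaja4 (-1.26 ± 0.37, adjusted p = 0.0136) and Dnajb1 (-1.08 ± 0.37, adjusted p = 0.0352) were called lower in quiescent fibroblasts. The Dnaja4 call was lost without replicate 3 of proliferating DMSO or replicate 2 of quiescent DMSO (adjusted p 0.0689 to 0.104), and that of Dnajb1 without either of these or replicate 3 of quiescent DMSO (adjusted p 0.0952 to 0.264).

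Dnajb5 under DMSO was higher in quiescent (0.55 ± 0.14, adjusted p = 0.00556) and lower in immortalized fibroblasts (-0.65, adjusted p = 0.00127). All 3 quiescent libraries (13.7 to 15.8 TPM) lay above and all 3 immortalized libraries (4.90 to 5.74 TPM) below the proliferating ones (7.33 to 10.6 TPM). Dnajb9 was lower in immortalized fibroblasts (-0.91 ± 0.30, adjusted p = 0.0225), a call lost without replicate 3 of proliferating DMSO or replicate 2 of immortalized DMSO (adjusted p 0.145 to 0.15). Dnajc1 was lower there too (-0.65 ± 0.12, adjusted p = 4.30e-04).

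Dnajc2 (MPP11, which sits at the ribosome exit tunnel) was higher in immortalized (0.54 ± 0.15, adjusted p = 0.00991) and lower in senescent (-0.67, adjusted p = 0.00158) and quiescent fibroblasts (-0.44, adjusted p = 0.0354) under DMSO. The immortalized call was lost without replicate 2 of immortalized DMSO (adjusted p = 0.0593) and the quiescent call without any of 5 libraries (adjusted p 0.0539 to 0.117). Dnajc21 was higher in immortalized fibroblasts, at 21.6, 38.2 and 23.1 against 13.9, 18.9 and 12.2 TPM (0.81, adjusted p = 0.0128), but not without replicate 2 of immortalized DMSO (0.53, adjusted p = 0.108). Dnajc4 was higher in senescent fibroblasts, at 33.4, 37.9 and 29.9 against 16.6, 24.3 and 17.6 TPM (0.69 ± 0.21, adjusted p = 0.0114), but not without replicate 1 of proliferating DMSO (0.55, adjusted p = 0.0611).

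Grouped by compartment, of the 9 cytosolic and nuclear cochaperones of HSP70 7, 8, 7 and 7 rose and 1, 1, 1 and 1 fell for proliferating, senescent, quiescent and immortalized fibroblasts, with median log2 fold changes of 1.34, 0.74, 1.26 and 1.202. The 10 ER members had 4, 5, 2 and 5 rises and 2, 0, 1 and 4 falls, with medians of 0.31, 0.29, 0.09 and 0.27. The 7 mitochondrial members had 1 rise in each cell-state, that of Dnajc11, and 2, 1, 3 and 2 falls. The 6 members of the nucleus, splicing, chromatin and ribosome had 0, 2, 1 and 0 rises and 1, 0, 1 and 1 falls. The 5 tested members of vesicles and endocytosis had 0, 2, 3 and 0 rises, with Dnajc6 among the senescent and quiescent ones. They had 1 fall in each cell-state, that of Dnajc14. Dnajc14, an ER membrane protein, was counted in this list and not among the 10 ER members, whose falls therefore leave it out. These counts stand against the percentages of all genes given with the member counts.

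Of 15 HSP70 and HSP110 genes, the chaperones that HSP40 proteins serve, 12, 10, 10 and 11 rose and 2, 1, 2 and 3 fell for proliferating, senescent, quiescent and immortalized fibroblasts, with medians of 1.05, 0.70, 0.78 and 1.52. Across the cell-states 22.7% to 26.6% of all genes tested rose and 23.4% to 26.9% fell. Hspa8, the constitutive HSC70, rose by 3.02, 1.68, 1.72 and 3.10, and Hspa5 (BiP) by 2.19, 1.40, 0.78 and 2.35. Hspa1a, the inducible HSP70, averaged 8.34 to 40.6 TPM under DMSO and, under MG132, 369 TPM in quiescent, 1299 in senescent, 9383 in proliferating and 11105 in immortalized fibroblasts. Reads of its near-identical copy Hspa1b can be assigned to it, so the level of either is uncertain. Hspa1a was also high in replicate 3 of proliferating DMSO, the libraries of that group standing at 4.87, 7.16 and 109.8 TPM.

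Of 10 nucleotide exchange factors, which reset HSP70 by releasing its ADP, 6, 4, 5 and 5 rose and 3, 2, 1 and 3 fell in the same order. Among all genes tested 22.7% to 26.6% rose and 23.4% to 26.9% fell. Bag3, which leads HSP70 clients to autophagy, rose by 2.92, 1.47, 1.94 and 3.54. The values for Bag2, an inhibitor of the ubiquitin ligase CHIP, were -0.77, -1.40, 0.08 and -0.70, of which the quiescent value did not pass.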

How the data were processed

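Poly(A) RNA of mouse tail fibroblasts was sequenced in 24 libraries, which the sample titles place in 8 groups (4 cell-states, DMSO or MG132, n = 3). The authors deposited TPM per gene. Their methods give trimming with Cutadapt, quantification by kallisto on GRCm38 transcripts plus ERCC spike-ins, normalization by RUVg, and TPM from spike-in-normalized counts over gene length, scaled to the library's total. The submitters' processing notes instead list FastQC, HISAT2, StringTie and edgeR beside cutadapt, with no versions, and which of these made the values was not settled here. In all, the table held 19880 genes and 0 ERCC rows, and each library summed to 1000000 TPM, so depth and counting error are unknown and no count test was run. The kit was stranded, but the use of strand in counting is not stated. All 39 members were located in GENCODE (GRCm38), where 12 overlap a coding gene on the opposite strand and 3 on the same strand (Dnaja3, Dnajc14 and Dnajc25).

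Genes with at least 1 TPM in 3 libraries (13489) were kept. TPM was divided by size factors over the 13243 genes above 0 in every library, a pseudocount of 1 was added, and log2 values were fitted with limma 3.58.1 (R 4.3.3) in 1 model of 8 group means (16 residual degrees of freedom, mean-variance trend, two-sided), with Benjamini-Hochberg adjustment over all genes kept and a threshold of 0.05. MG132 responses, DMSO differences from proliferating fibroblasts and differences of response were contrasts of this model. Class sums, medians and list counts are descriptions with no test. Shares of all genes called are given for this fit only, so member counts under other settings have no such share beside them. The code was tested on simulated data, and figures were drawn with matplotlib 3.10.9 (Python 3.11.15).

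The members and lists were chosen with earlier results of these data known. Named were all of class A, the 3 largest called rises and falls of each response among members with a group mean of at least 10 TPM, the largest called member in each direction of each other comparison, the most abundant member of each class by mean deposited TPM, and up to 2 called rises and 2 called falls of each compartment. Chosen after seeing the data were the motif of 2 heat shock units, members called alike in all 4 cell-states, other called DMSO differences, differences of response of at least 1 with their responses, and the counts without replicate 3 of proliferating DMSO. Dnajb11 was also named after seeing the data. The alternatives were 2 other scales (TPM as deposited, and the per-library total undone from the spacing of low values), pseudocounts of 0.1 and 5, no minimum or 5 TPM, only the libraries compared, a replicate block, no trend, and each library left out in turn.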

Additional observations from a re-analysis of the deposited data

Results flagged for a closer look

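These members' responses to MG132 differed between cell-states by the test of the difference itself (limma). The list is not complete, since other members and comparisons were also called. Each value is a difference of log2 fold changes. For Dnaja1 it was 1.85 for immortalized minus quiescent, 1.71 for immortalized minus senescent, -1.61 for quiescent minus proliferating and -1.47 for senescent minus proliferating fibroblasts. For Dnajb1 it was 1.92, 1.53 and -1.65 in the same first 3 comparisons. For Dnaja4 it was 1.65 for immortalized minus quiescent and 1.83 for immortalized minus senescent fibroblasts, and for Dnajb4 it was 1.29 for the latter. For Dnaja3, called in 4 comparisons of response in all, it was 0.74 for quiescent minus proliferating fibroblasts. For Dnajb14 it was 1.12 for immortalized minus quiescent and 1.32 for immortalized minus senescent fibroblasts, and for Dnajb5 0.69 for immortalized minus proliferating fibroblasts.

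In class C the value for Dnajc7 was -0.69 for immortalized minus proliferating, -0.93 for immortalized minus quiescent and -1.13 for immortalized minus senescent fibroblasts. For Dnajc6 it was 1.50 for senescent minus proliferating, -0.95 for quiescent minus senescent and -1.29 for immortalized minus senescent fibroblasts. Dnajc6 met the minimum level only through senescent libraries, so these values are a description, and with a pseudocount of 0.1 the last 2 were -0.20 and -1.54 and no longer called (adjusted p = 0.855 and 0.0544). For Dnajc9 it was 1.59 for immortalized minus quiescent fibroblasts. For immortalized minus senescent fibroblasts it was -1.07 for Dnajc17 and -1.14 for Dnajc18, and for Dnajc11 it was 0.54 for quiescent minus senescent fibroblasts.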

How the results depend on the processing

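The scale of the libraries changed most. Shares of all genes called on the other scales are not given, so the counts are not set against them. On TPM as deposited 7 members rose and 17 fell in proliferating fibroblasts (with the per-million step undone, 7 and 14), and 6 rose and 22 fell in immortalized fibroblasts (7 and 22). With that step undone 11 rose in senescent fibroblasts. Under DMSO, 8 members (deposited) or 11 (undone) were higher and 1 (undone) was lower in senescent fibroblasts, and 7 were higher and 3 lower in quiescent fibroblasts (deposited). Responses differed from proliferating fibroblasts in 19 members (deposited) or 11 (undone) for senescent, 9 or 10 for quiescent and 4 (deposited) for immortalized fibroblasts, and in 23 between immortalized and quiescent fibroblasts (deposited). Among the 151 single values, Dnajb12 turned in immortalized fibroblasts (-0.23 deposited, -0.14 undone). Dnajc1 turned in immortalized (-0.24 and -0.15) and proliferating fibroblasts (-0.37 deposited), as did Dnajc11 (-0.48 and -0.39 in immortalized, -0.011 deposited in proliferating fibroblasts). Members outside these values also turned on the deposited scale, among them Dnajc3 in immortalized and Dnajb11 in proliferating fibroblasts. The class sums on scaled TPM had mean log2 ratios of 2.20, 0.97 and 2.37 for class A, 2.44, 1.30 and 2.79 for class B and 0.048, 0.034 and -0.079 for class C in proliferating, quiescent and immortalized fibroblasts. This follows from the construction of the scales.

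With only the libraries compared in the fit, which has fewer samples, 2 members were higher and 1 lower in senescent, 1 higher and 3 lower in quiescent and 1 higher and 3 lower in immortalized than in proliferating fibroblasts under DMSO, and the differences of response from proliferating fibroblasts numbered 3 for senescent and 0 for immortalized fibroblasts (limma, 4 members at an unadjusted p under 0.05). Of 151 single values, calls lost with the direction kept, so without the values that turned, numbered as follows. This fit lost 28, the deposited scale 21, the undone scale 30, no minimum level 8, a pseudocount of 0.1 lost 4 and of 5 lost 3, and no trend lost 1.

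Leaving out each library in turn gave 2 to 6 higher and 3 to 7 lower members under DMSO in senescent, 2 to 5 and 2 to 7 in quiescent and 2 to 8 and 3 to 7 in immortalized fibroblasts. Differences of response from proliferating fibroblasts ranged from 4 to 11 for senescent, 2 to 5 for quiescent and 1 to 6 for immortalized fibroblasts, the highest counts being those without replicate 3 of proliferating DMSO. The class B sum ranged from 1.71 to 2.04 in proliferating and 1.44 to 1.72 in senescent fibroblasts, and the class C sum from 0.18 to 0.24 in senescent, -0.19 to -0.12 in quiescent and -0.89 to -0.82 in immortalized fibroblasts (mean log2 ratio of TPM). Counts of the MG132 responses stayed within 1.5 times their value.

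Whether same-numbered libraries pair was not settled. Of 84 same-numbered pairs 35 correlated above 0.1 (median 0.043, range -0.66 to 0.57), and the median of pairs with other numbers was -0.029. The main fit treated libraries as unpaired. With a replicate block the counts of members called in the MG132 responses were as without it, the differences numbered 18 against 16 for immortalized minus senescent fibroblasts, and 1 of 151 single values (Dnajc8, senescent under DMSO) lost its call.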
